A study of Drosophila melanogaster with 3 samples.

Results

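The genes u-shaped (ush), cabut (cbt), pannier (pnr), serpent (srp) and grain (grn) were examined for binding of Salr, a zinc-finger transcription factor of the Spalt family, in Drosophila melanogaster prepupae. These 5 of 13945 protein-coding genes were chosen by their peaks in these same lists, starting from the strongest peak of all. Every summit inside a gene span or within 5 kb of it was taken, and the values below are therefore descriptions without a test. Together the genes held 17 of the 6485 peaks that passed the authors' reproducibility threshold. That threshold rests on the irreproducible discovery rate (IDR), a measure of how well peak ranks agree between replicates. A listed peak need not rank alike in each replicate. Of the 6485, 126 had no summit within 100 bp among the best 6485 peaks of any replicate, and these include 2 of the 17. The libraries came from whole prepupae of both sexes, of an age within that stage given as unknown. All animals carried salr fused at its C-terminus to GFP in the strain salr-GFP, and chromatin sheared to 200 to 800 bp was recovered with an anti-GFP antibody. The 3 libraries, labelled biological replicates 1 to 3, all belong to one group and no conditions were compared. The labels do not say what drives the transgene, and whole animals cannot show in which tissue a peak arose. ChIP-seq gives no expression values, so the stage was not checked against marker genes.

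U-shaped is a protein with many zinc fingers of the Friend-of-GATA family, which binds GATA factors and modifies their activity. In the dorsal thorax it binds Pannier and restrains activation of the achaete and scute bristle genes, and it also acts in blood cells and the heart. Pannier patterns the dorsal ectoderm and specifies heart cells, Serpent is needed for blood cells, fat body and endoderm, and Grain shapes the posterior spiracles and guides motor axons. Cabut is a zinc-finger factor related to the mammalian TGF-beta-inducible early genes. It is required for dorsal closure of the embryo and responds to dietary sugar through the factor Mondo.

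The strongest peak of the whole experiment lay in an intron of ush, upstream of cbt, and a pair of further strong peaks flanked the cbt start site. The span of ush (FBgn0003963, dm6 2L 476220 to 540560, forward strand) contains the whole of cbt (FBgn0043364, 2L 476446 to 479688, reverse strand). The top summit, at 481075, had a signal value of 2035, an authors' score without a stated scale that ranks peaks within a list. In the lists of replicates 1, 2 and 3 this peak had ranks of 2, 1 and 7 and signal values of 931, 649 and 441. The replicate summits lay 21 bp to the right and 18 and 30 bp to the left of it. It was 1387 bp upstream of the cbt start site and 4855 bp downstream of the first ush start site. The next summit, at 480028, was 340 bp upstream of the cbt start and had a signal value of 856 and rank 119. Its ranks in replicates 1, 2 and 3 were 215, 119 and 43. The third summit, at 479138, lay in the 5′ UTR of cbt, 550 bp inside the gene and also within an intron of ush. It had a signal value of 751 and rank 185, with ranks of 76, 425 and 318 in the replicates. All 3 summits were thus among the 425 best peaks of every replicate, but the order of the lower pair differed, since replicate 1 placed the one inside cbt above the one upstream and replicates 2 and 3 the reverse. From left to right on the forward strand, they lay 890 and 1047 bp apart, and the authors' intervals were 295, 358 and 460 bp wide. The widest was that of the top summit, whereas the median IDR peak was 500 bp wide. The sequence around the pair outside the cbt transcript is shown here because these peaks had the highest signal values at these genes. Each is 201 bases of the forward strand of dm6, centred on the summit, with capitals marking a match to any of 11 short words described below.

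chr2L:479928-480128 (summit 480028, upstream of cbt): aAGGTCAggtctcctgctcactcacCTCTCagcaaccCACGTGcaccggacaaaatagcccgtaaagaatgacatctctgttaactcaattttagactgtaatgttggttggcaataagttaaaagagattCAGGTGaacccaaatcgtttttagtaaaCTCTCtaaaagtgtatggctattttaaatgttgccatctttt
chr2L:480975-481175 (summit 481075, the strongest peak): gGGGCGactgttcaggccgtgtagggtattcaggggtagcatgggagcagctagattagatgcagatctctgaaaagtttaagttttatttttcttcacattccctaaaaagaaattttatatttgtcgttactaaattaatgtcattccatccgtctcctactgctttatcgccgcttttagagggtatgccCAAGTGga

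The window at the strongest summit held only GGGCG and an E-box (CAAGTG), both more than 90 bp from the summit. The window upstream of cbt held AGGTCA, a match to GAGAG on either side of the summit and a pair of E-boxes, one of them CACGTG. None of the 3 strong windows held a GATA word.

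**Figure D1:**
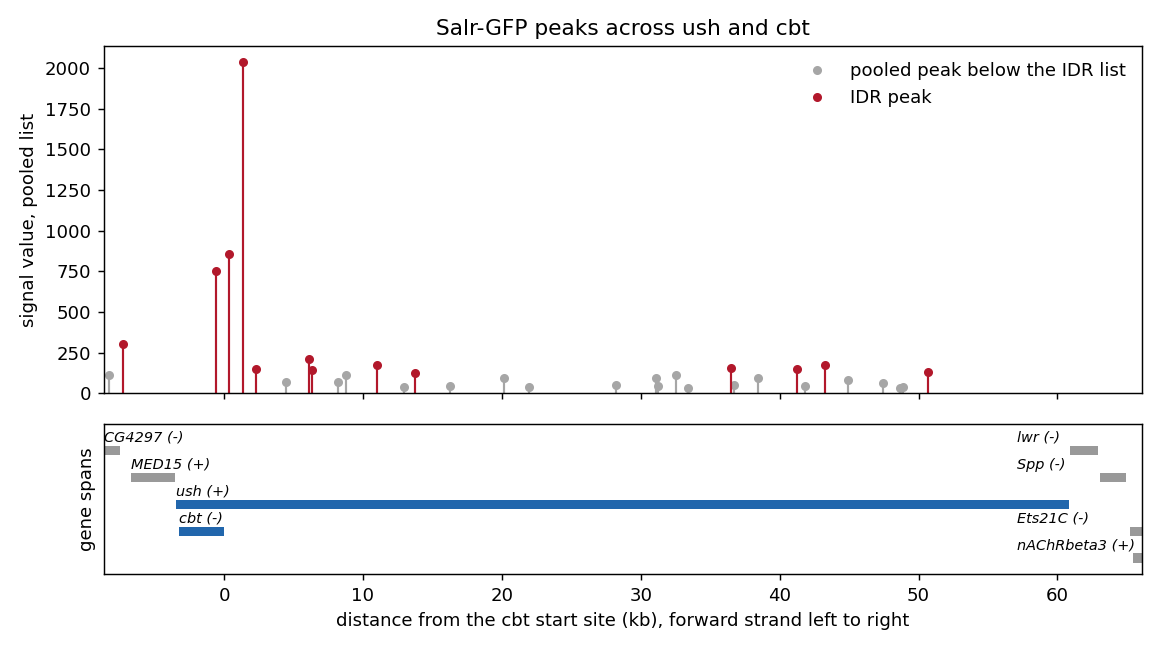
Signal value of each peak of the pooled list (linear axis from 0) against distance from the cbt start site in kb, with IDR peaks in red, weaker pooled peaks in grey and protein-coding gene spans below. The peaks of 751, 856 and 2035 stand within 1387 bp of the cbt start, and the other IDR peaks of ush lie between 127 and 304.

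Salr peaks at ush extended well beyond those at cbt, with lower signal values. In all, 13 IDR summits were assigned to ush, 12 of them inside its span and 11 of those in an intron. When replicate 3 was left out and an IDR peak had to be matched in replicates 1 and 2, 7 of the 13 were kept, and 9 were kept without replicate 1 or without replicate 2. The values that follow use the whole IDR list. The density in the span was 1.87 summits per 10 kb, compared with 0.484 for the 6 major chromosome arms. Long genes have more room for summits, and 198 protein-coding genes have a span at least as long as the 64.3 kb of ush. Their median was 3 summits in the span, and 22 of them, ush included, held 12 or more. Counting summits in the span or within 5 kb, 24 protein-coding genes had more than ush. The 3 strong peaks made up 67.9% of the summed signal value of the 13. As the score has no stated scale, this is not a share of the binding.

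**Figure D2:**
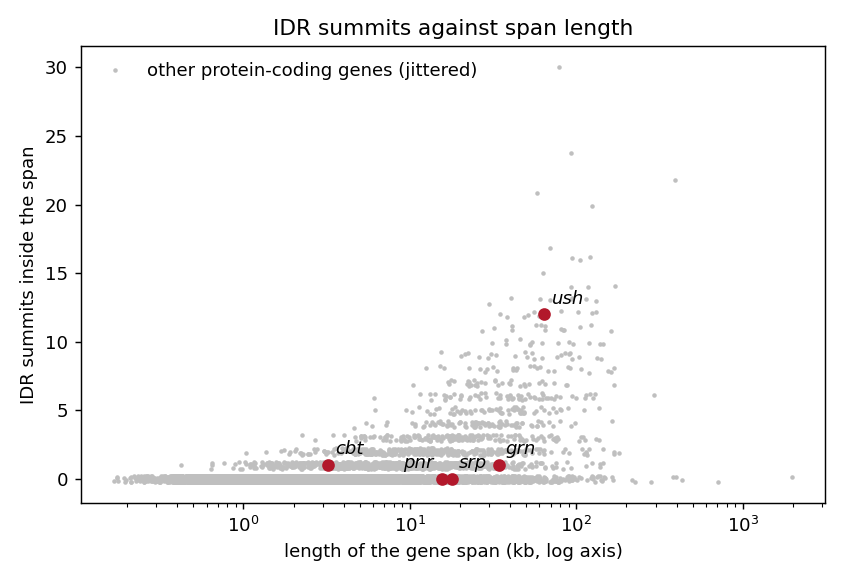
Number of IDR summits inside the span of each protein-coding gene (jittered, grey) against span length in kb on a log axis, with the members in red. The point for ush (12 summits) lies high among genes of its length, where the median is 3. The spans of pnr and srp hold 0 and that of grn holds 1. Of all protein-coding genes, 11.8% had an IDR summit in the span.

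Of the other 9 summits at ush inside its span, none had a signal value over 208, close to the IDR median of 195. At 481953 the signal value was 150 and the ranks in replicates 1, 2 and 3 were 5399, 4330 and 4813. A further pair of overlapping peaks at 485827 and 486027 had signal values of 208 and 144. The stronger of these ranked 2181, 6077 and 3726, whereas the weaker had a counterpart within 100 bp in replicate 2 alone, at rank 12649. The summit closest to a ush start site was at 490674, 161 bp from the start at 490835 that ush shares with lncRNA:CR46258, and it lay in a ush 5′ UTR. It had a signal value of 174, with ranks of 4283 and 3059 in replicates 1 and 3 but 11141 in replicate 2. Near the start sites at 523466 and 523736, the summit at 522955 was 511 bp from the nearer one, with a signal value of 176 and ranks of 4178, 3657 and 4903. The first start site, at 476220, had no IDR summit closer than 2918 bp. The remaining summits, at 493411, 516201, 520915 and 530407, had signal values of 127, 156, 147 and 132. Between 493411 and 516201, a stretch of 22.8 kb inside the gene held no IDR summit. The pooled list had 8 peaks there, and among the best 6485 of each replicate were 0 in replicate 1, 1 in replicate 2 and 2 in replicate 3, the best at rank 3867. The summit outside the span, at 472416, lay 3804 bp before ush but 216 bp from the start of CG4297, with a signal value of 304 and ranks of 1661, 2114 and 1681. Of the 13 summits, 4 had a ush start site as their nearest start, and for 3 more it was the start that ush shares with lncRNA:CR46258.

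The replicates differed in how many of their own best 6485 peaks they placed at ush. Replicate 1 had 11, replicate 2 had 14 and replicate 3 had 19, a mean of 14.7 ± 4.04 (SD, n = 3). Of these, 2, 5 and 7 had no IDR summit within 100 bp. At cbt every replicate had 5, the same number as in the IDR list, and all of them were matched to an IDR summit. Taking the IDR summits of ush, 7 of 13 (53.8%) were found among the best 6485 of all 3 replicates, and over all IDR peaks the share was 55.2%. The share at ush was thus near that of the whole list. Across the summits found in both lists, Spearman's rho between ranks was 0.78 for replicates 1 and 2 (11 summits), 0.73 for replicates 1 and 3 (12) and 0.69 for replicates 2 and 3 (11). These points share their libraries and include the strong trio, so the values are a description only.

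**Figure D3:**
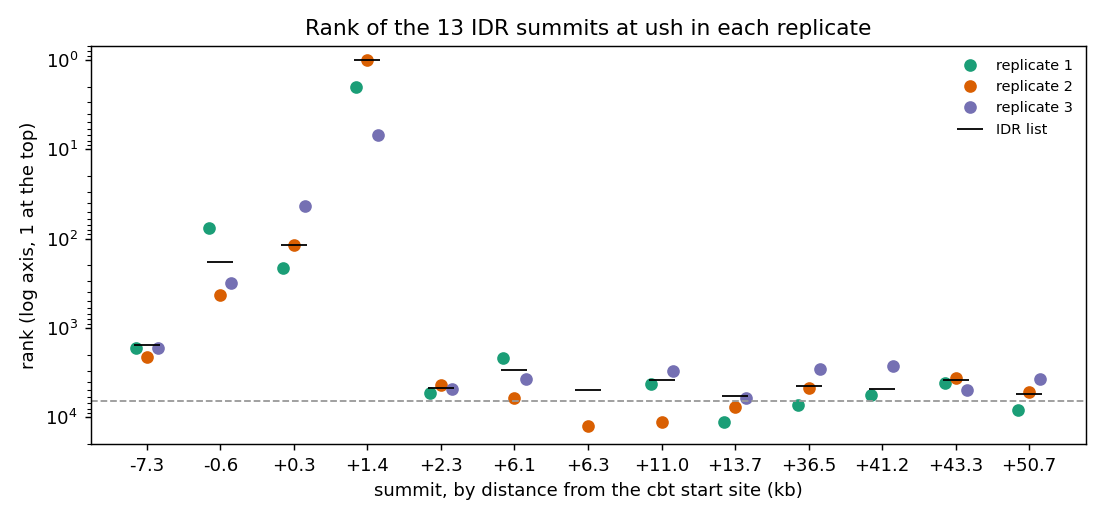
Rank of each of the 13 IDR summits at ush in the 3 replicate lists (circles) and in the IDR list (bars), on a log axis with rank 1 at the top, ordered by distance from the cbt start site in kb. The dashed line marks rank 6485. The 3 summits next to cbt stand at rank 425 or better in every replicate, and the others, where listed, lie at rank 1661 or beyond in each replicate.

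All 5 summits within 5 kb of cbt are also summits of ush, so peaks cannot be assigned to one of these genes. The summit at 472416 lay 4030 bp from cbt, and 479138 is the only one inside cbt. Nearest start sites point to cbt for the summits at 479138, 480028, 481075 and 481953. The next IDR summit outside the window lay 5653 bp from cbt, with a signal value of 225.

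Counted in the span or within 5 kb, the GATA genes carried fewer peaks than ush and cbt. Their strongest peaks were far weaker than the 3 strong peaks that ush and cbt share. The best srp peak (381) was stronger than the other ush peaks, and inside the spans cbt and grn each held 1 IDR summit. All 5 genes had an IDR summit in the span or within 5 kb, as did 38.8% of protein-coding genes, which was part of the choice of the genes. Leaving out replicate 2 or replicate 3 removed the only summit of pnr and left 4 of the 5. The strongest peak ranked 1017 in the IDR list for srp, 3561 for grn and 5187 for pnr. The best ranks in replicates 1, 2 and 3 were 1148, 887 and 1152 at srp. At grn they were 3493, 3774 and 3928, and at pnr 6333, 4543 and 4817, where the value of replicate 1 belongs to another peak than the IDR summit. These ranks were part of the choice of the genes, and their order is a description only. One of the 1000 strongest IDR summits was found at 2 of the 5 genes, ush and cbt through the same peaks, and at 12.8% of protein-coding genes. A summit within 500 bp of a start site was also found at ush and cbt alone, and at 12.5% of protein-coding genes. The one at ush was lost without replicate 1 and without replicate 3, which left 1 gene.

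**Figure D4:**
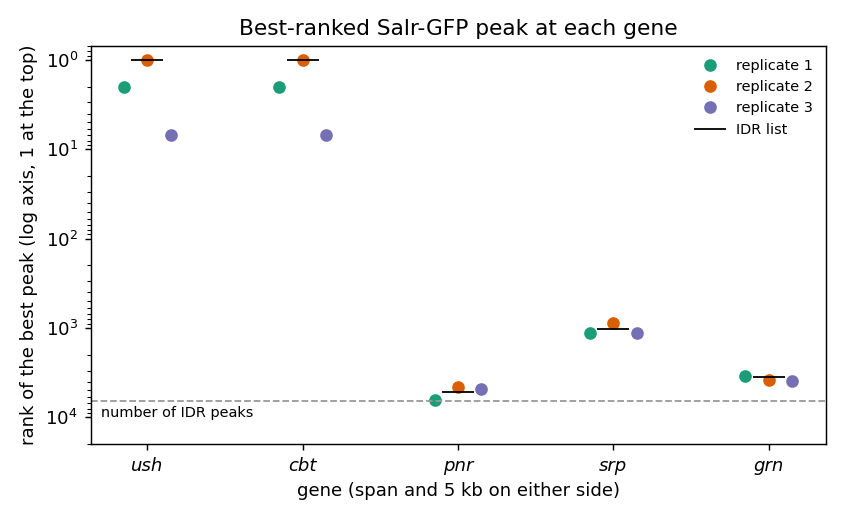
Rank of the best peak in the span or within 5 kb of each gene in replicates 1, 2 and 3 (circles) and in the IDR list (bars), on a log axis with rank 1 at the top and a dashed line at rank 6485. The ush and cbt points are the same peak at ranks 1 to 7, srp stands near rank 1000, and grn and pnr lie between 3493 and 6333.

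At srp (FBgn0003507, 3R 15986152 to 16004085), which encodes the GATA factor of blood and fat body, both IDR summits lay in the intergenic stretch before the gene. The stronger was at 15984593, 1559 bp upstream of the first start site, with a signal value of 381. Its signal values in replicates 1, 2 and 3 were 165, 129 and 87. The weaker was 207 bp away and in an overlapping interval, with a signal value of 165. Its ranks were 6983, 7082 and 28748, so no replicate placed it among its best 6485, and it was lost whichever replicate was left out. The transcribed span of srp held no IDR summit, as in most genes, since 11.8% of protein-coding genes had one in the span. The strongest pooled peak left out of the IDR list, in an intron at 15987571, had a signal value of 52.2 and rank 17339. The window of the stronger summit is shown because it is the strongest peak at any of the 3 GATA genes, and its GC content of 27.4% was the lowest of the 17.

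chr3R:15984493-15984693 (summit 15984593, stronger srp peak): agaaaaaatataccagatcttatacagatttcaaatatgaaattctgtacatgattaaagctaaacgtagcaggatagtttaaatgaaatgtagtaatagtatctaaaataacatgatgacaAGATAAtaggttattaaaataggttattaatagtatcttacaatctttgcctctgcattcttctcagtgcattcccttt

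This window held 1 GATA word, AGATAA, starting 22 bp to the right of the summit.

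At pnr (FBgn0003117, 3R 16026079 to 16041796), the partner of U-shaped in the thorax, the only IDR summit lay past the 3′ end of the gene. It was at 16042357, 561 bp beyond the span and 1141 bp from the start of the neighbouring gene Jhbp4, which was its nearest start site. It had a signal value of 139. In replicates 1, 2 and 3 the signal values were 48.2, 50.6 and 37.7 and the ranks 8042, 4543 and 4817, so replicate 1 did not place it among its best 6485. The best peak of replicate 1 near pnr, at rank 6333, corresponded to a pooled peak at 16043025 that ranked 7290 and so fell 805 places short of the IDR list. No start site of pnr had an IDR summit closer than 7771 bp.

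The genes srp, GATAe and pnr lie next to each other on 3R. Between the weaker srp summit and the pnr summit, 57.6 kb held no IDR summit, including the whole of srp, GATAe and pnr. Of the 6479 distances between neighbouring IDR summits on the 6 arms, 515 (7.95%) were as long or longer, and the median was 4.77 kb. This is a share of distances by number. Long stretches cover a larger share of the arms, so a given gene falls in one more often than this. The pooled list had 8 peaks in this stretch, with signal values of at most 52.2, and the best ranks there were 17029, 12006 and 9770 in replicates 1, 2 and 3. No replicate had one of its best 6485 peaks inside it.

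**Figure D5:**
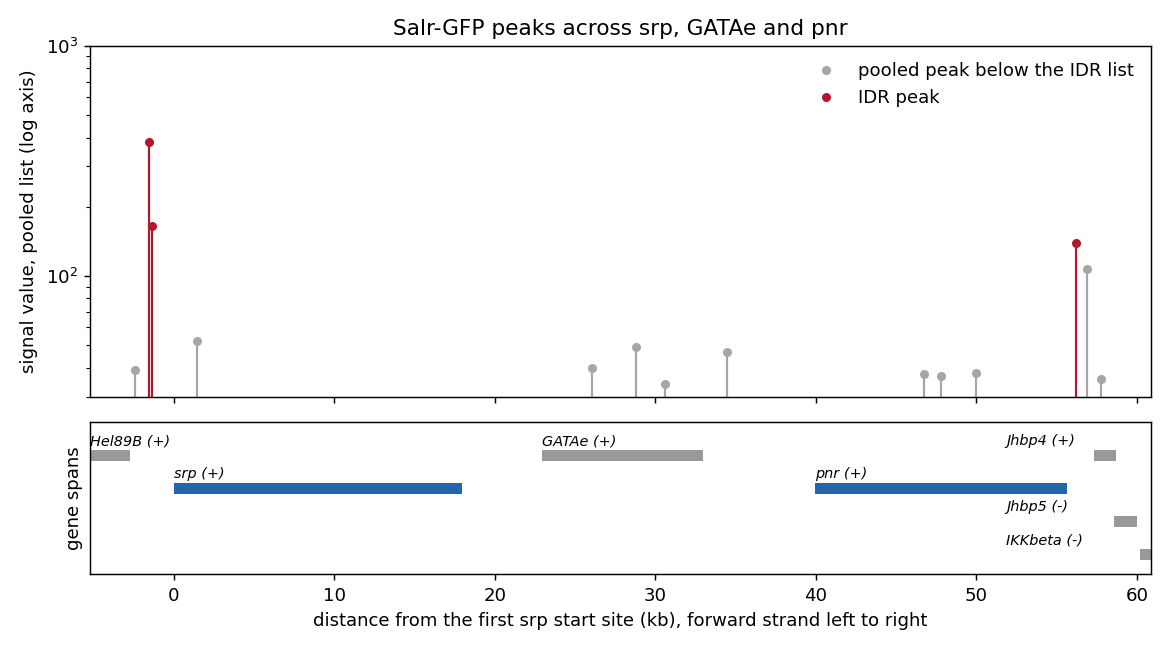
Signal value of each peak of the pooled list (log axis) against distance from the first srp start site in kb, with IDR peaks in red, weaker pooled peaks in grey and protein-coding gene spans below. The IDR peaks of 381 and 165 lie before srp and that of 139 lies past pnr, and the pooled peaks over srp, GATAe and pnr reach 52.2.

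At grn (FBgn0001138, 3R 8147368 to 8181444), the only IDR summit was intronic, at 8154157, 27287 bp from the start site at the far end of the gene. It had a signal value of 183. Its signal values in replicates 1, 2 and 3 were 88.5, 57.7 and 43.4, and its ranks differed little, between 3493 and 3928. Of 566 protein-coding genes with a span at least as long as the 34.1 kb of grn, 271 held 1 summit or none, and the median was 2. From this summit across the start site and beyond it, 80.0 kb held no further IDR summit. Of all distances between neighbours, 5.03% were as long or longer, again a share by number and not of the length of the arms. The stretch was not empty, since the pooled list had 25 peaks there. The best ranks in it were 4337, 6177 and 6974 in replicates 1, 2 and 3. A pair of these pooled peaks lay 0.198 and 0.429 kb upstream of the grn start site, with signal values of 104 and 103. The lowest signal value in the IDR list was 116. Just outside the limits set for choosing peaks were an IDR summit 5140 bp from grn, with a signal value of 154, and an intronic pooled peak at 8171682. The latter ranked 6498, 13 places below the IDR list, with ranks of 4337, 11179 and 26623 in the replicates. The single windows of grn and pnr are given for comparison with that of srp.

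chr3R:8154057-8154257 (summit 8154157, grn intron): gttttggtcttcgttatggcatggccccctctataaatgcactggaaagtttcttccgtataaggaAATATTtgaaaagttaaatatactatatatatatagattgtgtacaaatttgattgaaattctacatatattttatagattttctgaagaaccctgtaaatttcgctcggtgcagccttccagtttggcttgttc
chr3R:16042257-16042457 (summit 16042357, past pnr): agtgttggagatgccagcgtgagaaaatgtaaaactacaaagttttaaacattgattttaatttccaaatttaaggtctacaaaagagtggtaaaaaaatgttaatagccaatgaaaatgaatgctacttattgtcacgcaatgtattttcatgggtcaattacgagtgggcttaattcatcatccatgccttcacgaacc

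The grn window held AATATT to the left of the summit, and the pnr window held none of the words searched.

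GATA words were present at some of the 17 summits, in a share that varied with the replicates behind it. The words AGATAA and AGATAG, and also TGATAA and TGATAG, which fit the sites GATA factors prefer, were sought on both strands within 100 bp of each summit. They occurred at 7 of the 17 summits (41.2%) and at 38.3% of all 6485 IDR summits. In the best peaks of the replicates at these genes, the share was 53.3%, 27.8% and 34.8%, a mean of 38.6% ± 13.2 (SD, n = 3), and over all best peaks of the replicates it was 38.2%, 38.5% and 36.6%. Among the summits kept without replicate 1 the word stood at 2 of 12 (16.7%), against 39.1% of all IDR summits kept. Without replicate 3 it stood at 2 of 9 (22.2%), against 40.0%, and without replicate 2 at 4 of 11 (36.4%), against 38.7%. At ush the 5 summits with a GATA word were all among the weaker peaks, at 472416, 486027, 490674, 493411 and 520915. A pair of these introns, each with 2 GATA words, shows their arrangement.

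chr2L:485927-486127 (summit 486027, ush intron): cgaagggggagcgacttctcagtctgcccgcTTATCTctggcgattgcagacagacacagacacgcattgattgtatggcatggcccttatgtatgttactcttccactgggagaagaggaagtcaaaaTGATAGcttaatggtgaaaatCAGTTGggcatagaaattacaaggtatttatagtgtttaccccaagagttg
chr2L:493311-493511 (summit 493411, ush intron): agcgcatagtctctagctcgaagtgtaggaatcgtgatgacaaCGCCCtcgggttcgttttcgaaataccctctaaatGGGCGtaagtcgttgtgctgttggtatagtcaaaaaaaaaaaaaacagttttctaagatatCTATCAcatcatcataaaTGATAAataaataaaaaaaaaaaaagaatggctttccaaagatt

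The other words also gave small numbers. GAGAG, the core bound by GAGA factor, occurred at 6 of 17 summits (35.3%) and at 23.2% of all IDR summits. Of its 25 matches, 14 lay at the ush summit 490674, most of them overlapping each other. The replicates gave 33.8% ± 9.34 (SD, n = 3). E-boxes (CANNTG), the sites of basic helix-loop-helix proteins, occurred at 7 of 17 summits (41.2%), all of them at ush, against 58.2% of all IDR summits, and the replicates gave 45.9% ± 6.68. CACCC, part of the sites of Krüppel-like factors, occurred at 4 of 17 (23.5%) against 13.6%. GGGCG occurred at 4 of 17 against 11.9%, and AATATT at 5 of 17 (29.4%) against 29.6%. AGGTCA, a nuclear receptor half-site, occurred at 2 of 17 against 3.69%. TGGGAA and CAGGTA occurred at 1 of 17 each, against 10.1% and 3.27%. ATCGATA and TGANTCA were not in any of the 17 windows and occurred at 2.96% and 4.72% of all IDR summits. Among the 69 matches, 2 overlaps between different words were found, both of a GATA word with GAGAG. The median GC content of the 17 windows was 39.3% (range 27.4 to 58.7), and that of all IDR windows was 34.3%.

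Related genes were linked to these factors by function or by protein family. Their lists were chosen with earlier results of these data known, so they are not independent of the peaks. Of them, 41 of 67 (61.2%) had an IDR summit in the span or within 5 kb, compared with 38.8% of protein-coding genes. The median was 1 summit per gene, against 0 over all protein-coding genes. The lists are short, were not matched for span length and were not tested. At a start site, 11 of the 67 (16.4%) had a summit, against 12.5% of protein-coding genes, and 11 (16.4%) had one of the 1000 strongest, against 12.8%. Both shares were near those of all genes.

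The other GATA factor genes carried a weak peak or none. GATAe, which acts in the endoderm, had no IDR summit, and its best ranks in replicates 1, 2 and 3 were 20020, 12006 and 9770. GATAd had 1 summit with a signal value of 159, but this lay in the 5′ UTR of SamDC, 57 bp from the SamDC start.

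Of the partners of Pannier and U-shaped and other bristle genes, 14 of 20 (70.0%) had a summit, against 38.8% of protein-coding genes. One of the 1000 strongest was found at 5 of 20, and at 12.8% of protein-coding genes. The strongest was in osa, a chromatin remodelling subunit gene, with a signal value of 1501 in an intron that also holds an exon of lncRNA:CR46035. The Dpp ligand gene dpp had an intronic peak of 830, with ranks of 136, 128 and 157. The gene tou, for a chromatin protein that cooperates with Pannier, held 12 summits with a best signal value of 625. The summit within 5 kb of tup, which encodes the LIM-homeodomain protein Islet, had a signal value of 454 but lay 119 bp from the start of CG10602. The proneural gene ase and the Iroquois gene caup had no IDR summit.

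In the cardiac list, 5 of 9 genes (55.6%) had a summit, against 38.8% of protein-coding genes. The strongest were at mid (493) and tin (407), and lay 337 and 242 bp from their start sites. H15, a T-box gene like mid, followed with 249 and svp with 218, and bap and Doc1 had none. For blood and fat body genes the count was 7 of 13 (53.8%, against the same 38.8%). The summits near gcm (443) and PPO3 (286) were closest to the start sites of the neighbours Mtpalpha and l(2)k09913, and that of zfh1 (433) lay in its own intron. The Runx gene lz had an intergenic one of 331 within 5 kb, and crq and He had no IDR summit.

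Around cabut, 6 of 9 Sp and Krüppel-like zinc-finger genes (66.7%) had a summit, against 38.8% of protein-coding genes. The strongest had signal values of 279 at luna, 242 near Spps, 227 at CG42741 and 177 at dar1. None of these reached the 1000 strongest, and CG3065 and hkb had no IDR summit. Of the sugar sensing genes, 4 of 8 had a summit. The fatty acid synthase gene FASN1 had one of 284 at 321 bp from its start, and the insulin-like peptide gene Ilp6 one of 147 at 123 bp from its start, in an intron of Raf. The summits near Mondo (178) and bigmax (129) lay in introns of the neighbours crc and mrt, and ACC and daw had none. Of the JNK genes of dorsal closure, 4 of 6 (66.7%) had a summit, again against 38.8%. The phosphatase gene puc, a target of the pathway, had a peak of 778 at 18 bp from a start site, with ranks of 172, 359 and 61. The kinase gene msn had 478, the Fos gene kay 293 and the Jun gene Jra 130, the last of these 8 bp from the start of 14-3-3zeta. The kinase genes bsk and hep had no IDR summit.

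Genes with the most similar ranks of the best peak over the 3 replicates were sought by the Euclidean distance between log10 ranks, leaving out genes whose best IDR peak is the same one. For ush and cbt they were CG4496 and CG4497, which share a peak of ranks 7, 2 and 5, at a distance of 0.639. For srp they were CG32428 and CG5969, which share a peak of ranks 1134, 888 and 1074, at a distance of 0.0309. For grn they were CG45049 (0.0301) and the cuticle protein gene Cpr100A (0.0307), and for pnr CG43347 (0.0113) and CG11191 (0.0197). The ranks used for pnr are not those of a single peak, since that of replicate 1 (6333) belongs to another peak than the IDR summit (8042). Of these distances, those for ush and cbt were the largest. Log10 ranks are widely spaced near the top of a list, and these genes were chosen for holding the strongest peak. The order of the distances is therefore a description only.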

How the data were processed

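ChIP-seq peak lists of 3 replicate libraries were analysed on the dm6 build. Per the deposited notes on parent files, the authors called 30000 peaks for each replicate and for the pooled alignments with 1 control alignment common to all, and derived the IDR list of 6485 peaks from these lists. Which aligner and caller were used is not given in the sources used here. Each signal value is a score per peak deposited by the authors. The file names state that the lists hold peaks and background, so entries of low rank may be background. Read totals were not used here, so depth is unknown and scores and ranks only order peaks within a list. The lists on dm3 were not used here, because no annotation of that build was at hand.

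Summits (start plus deposited offset, 1-based) were placed on gene models of BDGP 6.54 from Ensembl release 115 and on the Release 6 sequence from RefSeq with Python 3.11.15 and pandas 2.3.3. Transposable elements were left out. Summits within 100 bp counted as shared, and the 6485 best peaks of each replicate were compared. The 11 words were sought in windows of 201 bp, both strands. The sequence of 1 window at srp is not reported here. Counting and word search were checked on made-up data. The members, words and 7 gene lists were chosen with earlier results of these data known. Named related genes are up to 4 per list with the strongest IDR peak and up to 2 without one, first in the alphabet. The genes with the most similar ranks are the 2 nearest to each member. No test was run. Alternatives were other windows, distances, peak sets and each replicate left out in turn.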

Additional observations from a re-analysis of the deposited data

How the results depend on the processing

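The count of 17 summits at the 5 genes ranged from 13 to 20 with flanks of 0 to 10 kb and from 15 to 23 in the replicates' own best peaks. It was 6 among the 3242 strongest IDR peaks and 3 among the 1000 strongest, and between 9 and 12 when each replicate was left out and an IDR peak had to be matched in the others. Such sets hold 62.4 to 67.2% of all IDR peaks by construction. Per gene, the 13 summits of ush became 5 and 3 among the 3242 and 1000 strongest peaks, and 7 to 9 without single replicates. The 5 of cbt became 1 for the span alone, 3 within 2 kb, 9 within 10 kb and 3 among the 1000 strongest, and stayed at 5 without single replicates. The 1 of pnr became 0 for the span alone and among the 3242 or 1000 strongest, 2 in replicate 3, and 0 to 1 without single replicates, being lost without replicate 2 and without replicate 3. The 2 of srp became 0 for the span alone, 1 among the 3242 strongest, 0 among the 1000 strongest, and 1 in each replicate and without each. The 1 of grn became 2 within 10 kb and in replicates 1 and 2, 0 among the 3242 or 1000 strongest, and stayed at 1 without single replicates. The 2 genes with a summit at a start site became 1 at 250 bp and 1 among the 3242 strongest peaks, and 1 or 2 without single replicates, where the ush start site lost its summit without replicates 1 and 3. The 9 summits matched in all 3 replicates became 5 with the best 3242 peaks of each, and 6 when summits had to lie within 50 bp. The share with a GATA word, 41.2%, was 23.5% within 50 bp, 64.7% within 200 bp and 58.8% for the core GATA alone, where all IDR summits gave 22.4%, 56.4% and 75.8%. It was 27.8% in replicate 2 and ranged from 16.7 to 36.4% without single replicates. The 41 related genes with a summit became 21 (31.3%) for the span alone, 11 (16.4%) at start sites and 11 (16.4%) with the 1000 strongest peaks, where all protein-coding genes gave 11.8%, 12.5% and 12.8%. Without single replicates they were 28 to 30 (41.8 to 44.8%), against 31.6 to 32.5% of all protein-coding genes. No paired analysis was possible because the samples form a single group. Without read totals, it cannot be said which weak peaks a deeper library would keep.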

Other observations

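CG3065, a zinc-finger gene of the Sp and Krüppel-like list, had no IDR summit, yet its best peaks ranked 1525 in replicate 2 and 1645 in replicate 3. Replicate 1 listed no peak in its span or within 5 kb. The gene daw, for an Activin-type ligand, also without an IDR summit, had best ranks of 4383 and 4718 in replicates 1 and 3 and 15060 in replicate 2.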
